A study of Mus musculus with 12 samples.

Results

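Sarcomere and Z-disc genes encode the contractile lattice of the cardiomyocyte (CM), the muscle cell of the heart, together with the proteins that anchor its filaments, sense its strain and replace its damaged parts. A fixed list of 45 such genes was followed through a map of histone H3 trimethylated at lysine 4 (H3K4me3) in adult mouse CM nuclei, by taking each peak that carried the name of a listed gene. Of 15848 peaks in the map, 43 belonged to the list and named 41 of its genes. *Tnnt2* and *Xirp1* had 2 peaks each, and *Cryab*, *Smyd1*, *Myoz1* and *Capn3* had none under their own name.

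In striated muscle, thin filaments of actin carry tropomyosin and the troponin complex, which make contraction depend on calcium. Thick filaments of myosin are held in register by the M-band, and the thin filaments of neighbouring sarcomeres are crosslinked at the Z-disc, where proteins with LIM domains and chaperones also report and repair mechanical strain. H3K4me3 is deposited around the start sites of active genes, and in many cell types the widest H3K4me3 domains lie over the genes that define the cell.

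Adult CM nuclei were isolated from ventricles by sorting with an antibody to PCM1, a protein at the nuclear surface of CMs, and H3K4me3 was profiled by chromatin immunoprecipitation and sequencing (ChIP–seq). The CtrlCre group held 3 libraries from αMHC-Cre pos/+;Cpt1b +/+ mice and the Cpt1bcKO group held 3 from αMHC-Cre pos/+;Cpt1b fl/fl mice, so both carried the Cre transgene on a C57BL/6 background and differed in the floxed alleles. *Cpt1b* encodes the muscle enzyme that loads long-chain fatty acids for import into mitochondria, and the comparison asks how its loss alters H3K4me3. The αMHC promoter drives Cre in CMs and is active before adulthood, so Cre had been present well before sampling. The age of the mice used for ChIP–seq is not given in the sources used here. The study describes its in vivo work in general as using biological replicates. The labels do not tie the 3 libraries of a genotype to separate mice, so p-values measure the spread between these libraries.

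Values are counts in a peak that the authors normalized for depth and composition with size factors, which leave the bulk of peaks centred on no change. A difference is therefore relative to the other peaks. The study reported a lower total level of H3K4me3 in Cpt1bcKO CM nuclei by western blot. A fall shared by all peaks would not appear in these values. The libraries held between 763133 counts in peaks (CtrlCre replicate 2) and 2766416 (Cpt1bcKO replicate 2). The identity of the nuclei was checked with fixed marker lists. All 6 of 6 CM markers had a peak, and their summed value was 5863 to 7121 in CtrlCre and 3815 to 5987 in Cpt1bcKO, with the lowest sum in Cpt1bcKO replicate 3. A peak was present for 1 of 8 fibroblast markers (summed value 58 to 69 against 56 to 63), 1 of 7 endothelial markers (39 to 91 against 31 to 51), 3 of 6 smooth muscle and pericyte markers (92 to 142 against 42 to 98) and 0 of 7 leukocyte markers. Fewer nuclei carrying the mark and less mark per nucleus cannot be told apart in such bulk samples.

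Sequences upstream of a start site are shown first for the 3 genes whose peaks passed the test described below, *Fhl2*, *Pdlim3* and *Csrp3*, and for *Mybpc3*, whose peak had the highest level among those with a higher value in Cpt1bcKO at an unadjusted p under 0.05. Each is the run of 150 bases before the RefSeq start on GRCm38.p6, written 5′ to 3′ on the strand of the gene. Capitals mark letters of 6 motifs searched on both strands. The CArG box and the MEF2 site were searched with their degenerate consensus. The GATA site was read as GATAA preceded by A or T. MCAT was read as CATTCC. For the TATA box the letters were TATAAA. The E-box was CANNTG. The MEF2 site of *Fhl2* overlaps its TATA box, and that of *Mybpc3* touches an E-box.
Fhl2, chr1:43196762-43196911, minus strand: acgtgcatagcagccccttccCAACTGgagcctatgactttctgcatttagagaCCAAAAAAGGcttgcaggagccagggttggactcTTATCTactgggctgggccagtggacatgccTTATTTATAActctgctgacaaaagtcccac
Pdlim3, chr8:45885337-45885486, plus strand: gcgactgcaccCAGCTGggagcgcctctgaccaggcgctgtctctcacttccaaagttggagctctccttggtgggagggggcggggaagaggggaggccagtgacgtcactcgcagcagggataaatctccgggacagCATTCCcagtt
Csrp3, chr7:48848052-48848201, minus strand: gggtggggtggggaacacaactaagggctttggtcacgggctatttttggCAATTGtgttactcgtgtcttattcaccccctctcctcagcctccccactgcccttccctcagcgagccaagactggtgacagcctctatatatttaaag
Mybpc3, chr2:91117994-91118143, plus strand: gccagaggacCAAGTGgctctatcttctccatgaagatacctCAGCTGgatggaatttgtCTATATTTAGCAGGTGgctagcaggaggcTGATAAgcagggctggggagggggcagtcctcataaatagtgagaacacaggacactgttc

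In the *Fhl2* sequence a CArG box, the motif bound by serum response factor, lay 96 to 87 bases before the start and a MEF2 site 31 to 22 bases before it. *Pdlim3* carried an MCAT motif, the site of TEAD factors, 11 to 6 bases before its start. The upstream sequence of *Csrp3* held an E-box and none of the other motifs. That of *Mybpc3* had a MEF2 site 90 to 81 bases before the start and a GATA site 61 to 56 bases before it. RefSeq promoters of 250 bases before to 50 after a start were found for 35 of the listed genes, 48 promoters in all, and 37 of their starts lay inside a peak of the list. A CArG box was present in 12.5% of the 48 promoters and in 1.63% of all 32851 promoters, and a MEF2 site in 16.7% and 3.19%. MCAT was present in 29.2% against 14.7%, the GATA site in 22.9% against 18.6%, the TATA box in 14.6% against 13.6% and the E-box in 77.1% against 72.3%. The CArG boxes came from 4 of the 35 genes, since *Fhl2* and *Ldb3* counted repeatedly through alternative promoters, and the MEF2 sites from 7. Among the 37 promoters with a start in a listed peak, 10.8% held a CArG box and 18.9% a MEF2 site. These shares describe letters in the windows and were not tested.

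H3K4me3 at the sarcomere and Z-disc genes lay in broad peaks with high values. Each peak has a single width, that of the union over all libraries, so breadth was not measured per genotype. The study divided peaks by width into a broad, a medium and a narrow class, and a peak wider than 75% of tested peaks, here above 2222 bases, is called broad. Of the 43 peaks, 36 were broad, 4 medium and 3 narrow. The broad share was 83.7% (95% Wilson interval 70.0% to 91.9%, which treats the peaks as independent draws). Width was not used to choose the genes, which were chosen as genes of this cell type. The median width was 5020 bases, against 1514 over all 15039 tested peaks, and the median value was 291 against 102. Per kb of peak the medians in CtrlCre were closer, with 68.6 normalized counts against 60.4. The background of these comparisons is mixed. Every listed peak carried a gene by rule, while 12686 of all 15848 peaks in the map carried a gene ID.

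**Figure D1:**
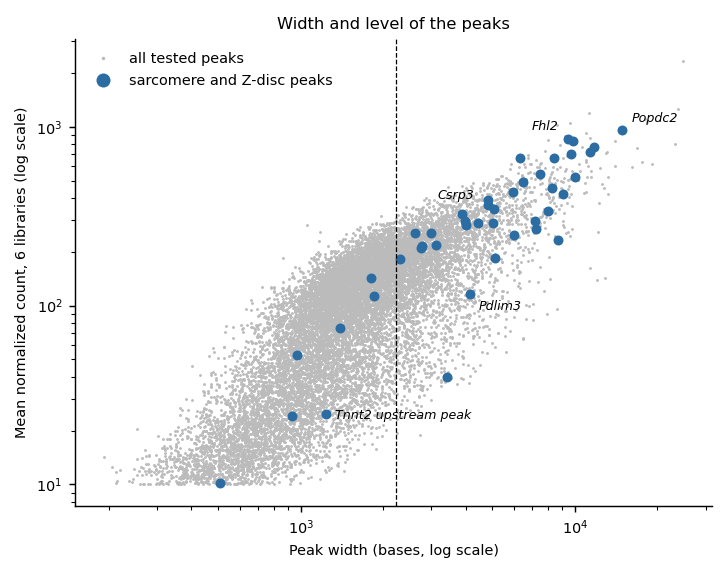
Width (horizontal axis, bases, log scale) and mean normalized count over the 6 libraries (vertical axis, log scale) of all 15039 tested peaks in grey and of the 43 sarcomere and Z-disc peaks in blue, with the limit of the broad class at 2222 bases as a dashed line. Most blue points lie to the right of the line, up to *Popdc2* at 14918 bases, and the *Tnnt2* upstream peak is among the few at low width and level.

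The domains extended mostly into the genes. In the GENCODE vM21 annotation, 41 of the 43 peaks covered an annotated start of their gene, and 38 reached further downstream of the start than upstream. The median reach was 4300 bases downstream and 673 bases upstream, the summit lay downstream of the start in 39 peaks, and a median of 73.4% of the peak was intron. *Lmod2*, *Tnnc1*, *Tnni3* and *Tcap* were covered from end to end. The peaks without a start were the upstream peak of *Tnnt2* and the upstream peak of *Xirp1*. The widest peak, at *Popdc2*, covered 83.0% of the gene. Some peaks also overlapped another coding gene, so their width and value are not those of the listed gene alone. Among them were *Popdc2* (*Gm21987*), *Mybpc3* (*Spi1*), *Tnnc1* (*Nisch*), *Tnni3* (*Dnaaf3*), *Unc45b* (*Nle1*) and *Xirp1* (*Cx3cr1*).

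Loss of *Cpt1b* went with lower H3K4me3, relative to the other peaks, at a small number of these genes. In the limma fit across all tested peaks, *Pdlim3*, *Fhl2* and *Csrp3* fell in Cpt1bcKO at an adjusted p under 0.05, which is 3 of 43 peaks where 1.82% of all tested peaks were called lower. None of the 43 was called higher, where 1.11% of all tested peaks were, and 2.93% were called in either direction. Without adjustment, 9 peaks were lower at a p under 0.05 (6.98% of all tested peaks) and 4 were higher (5.84%), 13 of 43 against 12.8% in either direction. The 3 values of a genotype lay wholly below those of the other in 8 peaks with lower values in Cpt1bcKO (8.46% of all tested peaks) and in 2 with higher values (7.8%), against 16.3% in either direction. With quantile normalization 1 peak, *Mybpc3*, was called higher at an adjusted p under 0.05 beside 3 lower, and with median centring the same 9 peaks were lower and 1 was higher at the unadjusted threshold. The count of 4 became 0 without CtrlCre replicate 1 or without Cpt1bcKO replicate 2, and 2 without CtrlCre replicate 2 or Cpt1bcKO replicate 1. Peaks without overlap numbered 16 lower without Cpt1bcKO replicate 2, and 5 higher without CtrlCre replicate 3, Cpt1bcKO replicate 1 or Cpt1bcKO replicate 3. Lack of overlap is easier to reach with fewer libraries. The matching share over all tested peaks is not given, so these counts cannot be read as a result about the listed genes.

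**Figure D2:**
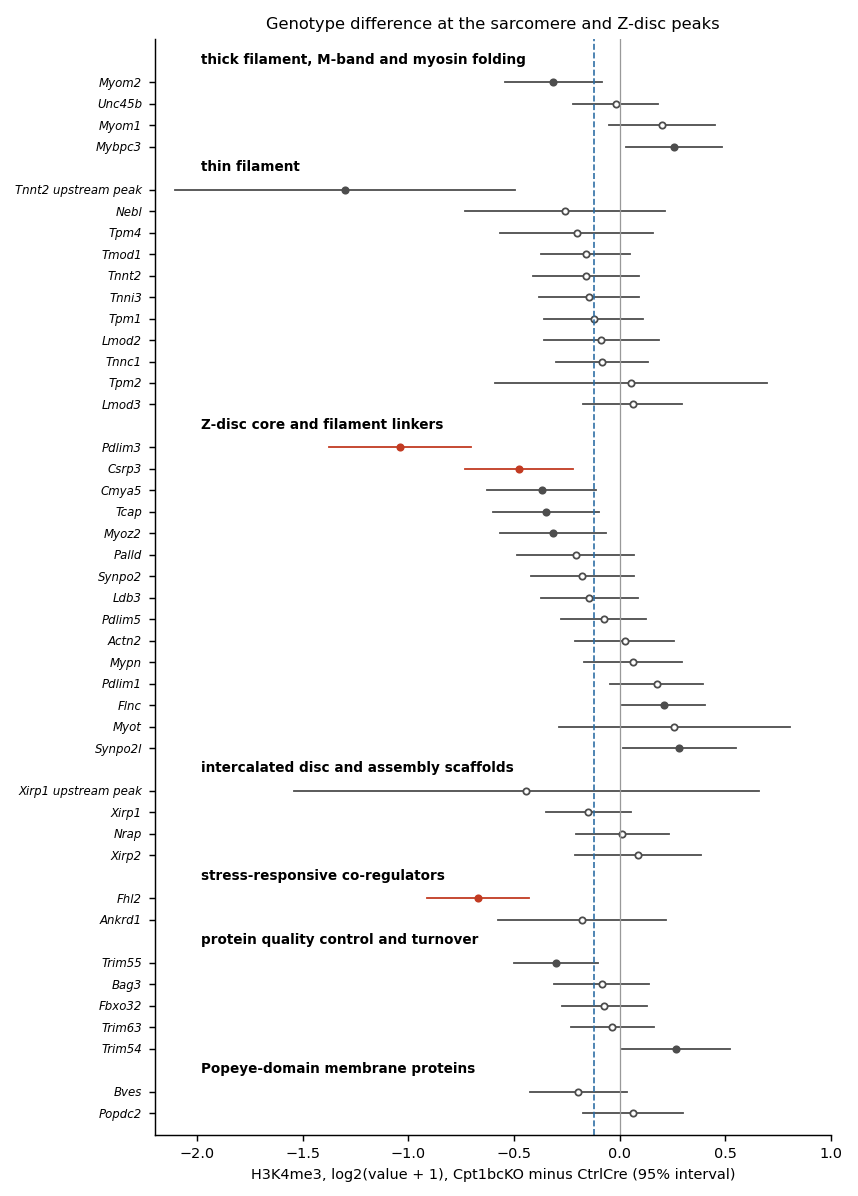
Log2 difference in H3K4me3, Cpt1bcKO minus CtrlCre, on the log2(value + 1) scale (horizontal axis), with its 95% interval from limma, for each of the 43 peaks grouped by role. Filled points have an unadjusted p under 0.05, red marks the 3 peaks at an adjusted p under 0.05, and the dashed line is the median of the 43, -0.12. *Pdlim3*, *Fhl2* and *Csrp3* lie left of 0, and intervals of most other peaks span it.

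As a group the peaks were shifted slightly downwards, by an amount that rested on single libraries. The log2 difference was below 0 in 29 of the 43 peaks (48.8% of all tested peaks) and above 0 in 14, with a median of -0.12 against 0.0057 over all tested peaks and 0.0025 over the 3757 broad ones. Leaving out Cpt1bcKO replicate 3 took the median to -0.021 with 24 peaks below 0, and leaving out CtrlCre replicate 3 took it to -0.044 with 27 below 0. In the other direction, it was -0.17 with 33 below 0 without Cpt1bcKO replicate 2. It was -0.17 with 32 below 0 without CtrlCre replicate 2. Without replicate 1 of either genotype it was -0.11. The median deviation of the peaks from the mean of the 6 libraries was 0.048, -0.016 and 0.13 in CtrlCre replicates 1 to 3 and -0.084, 0.10 and -0.16 in Cpt1bcKO replicates 1 to 3. The genotypes overlapped on this measure, since Cpt1bcKO replicate 2 lay above CtrlCre replicates 1 and 2. Cpt1bcKO replicate 3 held the lowest value in 22 of the 43 peaks, a position it took in 16.8% of all tested peaks, and CtrlCre replicate 3 held the highest in 17. Cpt1bcKO replicate 3 also had the lowest summed CM markers. Of these markers *Myh6*, *Myl2*, *Tnnt2* and *Actc1*, called below, are sarcomere genes, so their sum is not separate from the sarcomere signal. The part of this library's state in the shift was not tested.

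**Figure D3:**
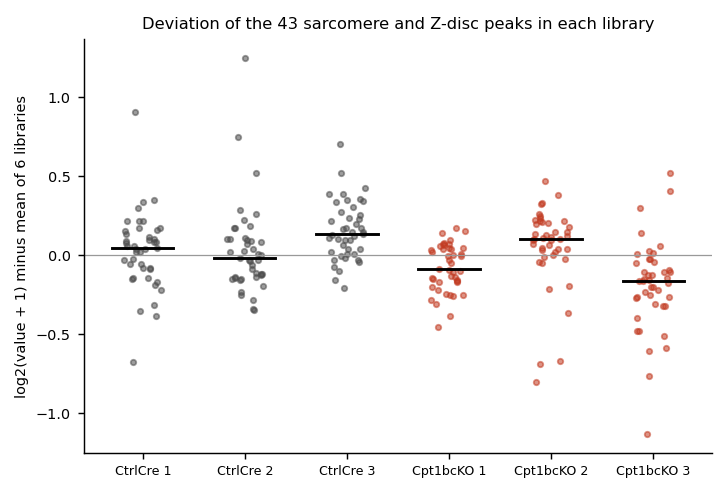
Deviation of each of the 43 peaks from its mean over the 6 libraries, in log2(value + 1) (vertical axis), for CtrlCre (grey) and Cpt1bcKO (red) replicates 1 to 3, with the median of each library as a black bar. The medians run from -0.16 in Cpt1bcKO replicate 3 to 0.13 in CtrlCre replicate 3, and Cpt1bcKO replicate 2 sits at 0.10 among the CtrlCre libraries.

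*Fhl2* encodes a protein of LIM domains that binds titin at the sarcomere and also acts as a transcriptional cofactor. Its peak at chr1:43189729-43199159 (mm10) had the second highest level of the 43. It covered 2 annotated starts, ran 7032 bases into the gene and lay mainly over introns. The normalized counts were 1054, 990 and 1079 in CtrlCre and 719, 720 and 541 in Cpt1bcKO, so the groups were well apart. The mean went from 1041 ± 45.9 to 660 ± 103 (SD, n = 3 each), a log2 difference of -0.67 (SE 0.12, limma adjusted p = 0.00131).

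A second peak lay inside *Fhl2* and carried no gene name. It was singled out after its values were seen. It spanned chr1:43176341-43189248, 12907 bases wide, 7513 to 20420 bases downstream of the nearer of the 2 starts and 481 bases from the promoter peak. Its values were 242, 223 and 172 in CtrlCre and 88, 73 and 63 in Cpt1bcKO, and no Cpt1bcKO library came near the CtrlCre range. The mean went from 212 ± 36.2 to 74.7 ± 12.6 (SD, n = 3 each), a log2 difference of -1.49 (SE 0.14, limma adjusted p = 7.09e-07). The value of the inner peak amounted to 22.96%, 22.5% and 15.9% of that of the promoter peak in CtrlCre and to 12.2%, 10.1% and 11.6% in Cpt1bcKO, so its share was lower in each Cpt1bcKO library than in each CtrlCre library. Together the pair spanned 22818 bases. A further peak, at the start of the shortest *Fhl2* transcript, held 40, 35 and 39 against 41, 39 and 29 and had a log2 difference of -0.076 (SE 0.25, limma adjusted p = 0.953).

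**Figure D4:**
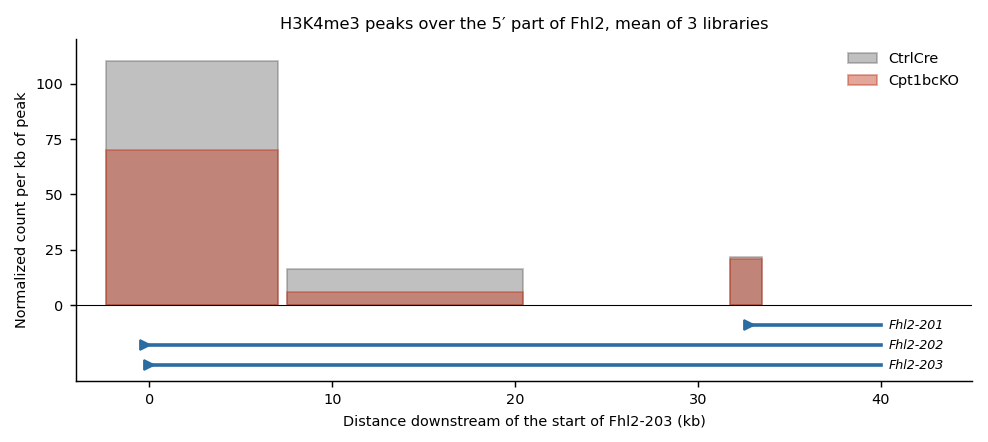
Mean normalized count per kb of peak (vertical axis) of the 3 H3K4me3 peaks over the 5′ part of *Fhl2*, by distance in kb downstream of the nearer start in the promoter peak (horizontal axis), in CtrlCre (grey) and Cpt1bcKO (red, drawn over grey), with annotated transcripts as blue lines cut at the right edge. The promoter peak has 110 against 70.0 normalized counts per kb and the inner peak 16.5 against 5.78, while the bars of the peak at the start of the shortest transcript nearly coincide at 21.6 and 20.7.

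*Pdlim3* encodes ALP, the actinin-associated LIM protein of the Z-disc. Its peak at chr8:45884560-45888699 covered 3 starts and ran 3179 bases into the gene. The values were 115, 181 and 175 in CtrlCre and 88, 66 and 71 in Cpt1bcKO. Each Cpt1bcKO library was below the lowest CtrlCre library, and the mean went from 157 ± 36.5 to 75 ± 11.5 (SD, n = 3 each). The log2 difference of -1.04 (SE 0.16, limma adjusted p = 0.000395) was the largest fall among the called peaks of the list. These values rest on 78 to 186 recovered counts per library.

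*Csrp3* encodes muscle LIM protein, a Z-disc protein linked to strain sensing. The peak at chr7:48843588-48848411 covered 3 starts and ran 4445 bases into the gene. It held 417, 386 and 468 in CtrlCre and 289, 385 and 251 in Cpt1bcKO, so the groups were separated by 1 normalized count at their closest. The mean went from 424 ± 41.4 to 308 ± 69.1 (SD, n = 3 each), a log2 difference of -0.48 (SE 0.12, limma adjusted p = 0.0347). This call was lost without any 1 of 4 libraries, with adjusted p-values of 0.124 without CtrlCre replicate 1, 0.147 without CtrlCre replicate 3, 0.191 without Cpt1bcKO replicate 1 and 0.237 without Cpt1bcKO replicate 3. The direction did not change in these fits.

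Apart from the inner *Fhl2* peak, the nearest peaks around these genes were not called. These neighbours lay 32112 to 245891 bases away. Around *Csrp3*, the peaks of *Zdhhc13* and *E2f8* had log2 differences of 0.077 and 0.097. Around *Pdlim3*, an unassigned peak and that of *Ufsp2* had -0.014 and 0.018, and on the far side of *Fhl2* the peak of *Nck2* had 0.079. The smallest limma adjusted p among these 5 was 0.848.

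The 3 genes that fell all encode proteins with LIM domains. The other listed LIM genes with a peak were *Pdlim1*, *Pdlim5*, *Ldb3* and *Nrap*, so 3 of 7 LIM peaks and 0 of the 36 other peaks were called, where 1.82% of all tested peaks were called lower. The median log2 difference was -0.14 over the LIM peaks and -0.10 over the others. Of the LIM genes in the second list of sarcomere genes described further on, 0 of 4 peaks were called, with log2 differences of -0.49 at *Pdlim7*, -0.53 at *Fhl3*, 0.48 at *Fhl1* and -0.010 at *Csrp2*. This grouping was made after the values were seen and carries no test.

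**Figure D5:**
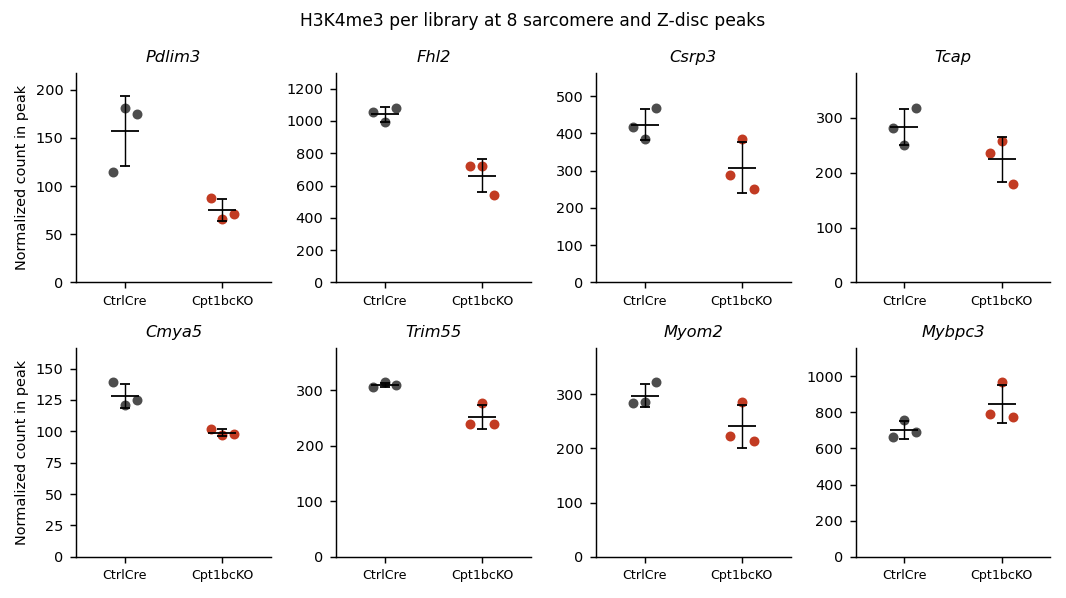
Normalized H3K4me3 count in the peak (vertical axis, from 0) in each of the 3 libraries of CtrlCre (grey) and Cpt1bcKO (red) for 8 peaks, with the mean and SD in black. *Pdlim3*, *Fhl2* and *Csrp3* passed the adjusted test, while *Tcap*, *Cmya5*, *Trim55*, *Myom2* and *Mybpc3* had an unadjusted p under 0.05 and did not pass it.

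At the remaining Z-disc genes differences ran in both directions. Of the 15 peaks in this group, 13 were not called, and of these 7 had a log2 difference below 0 and 6 above, with a median of -0.075. *Tcap*, which encodes the telethonin cap on titin, had values of 282, 251 and 318 in CtrlCre and 236, 258 and 179 in Cpt1bcKO. The ranges overlapped through Cpt1bcKO replicate 2, and the log2 difference was -0.35 (SE 0.12, limma adjusted p = 0.162), or -0.19 without Cpt1bcKO replicate 3.

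*Cmya5* encodes myospryn, which anchors protein kinase A near the Z-disc. It held 139, 121 and 125 against 102, 97 and 98, with no overlap and a log2 difference of -0.37 (SE 0.12, limma adjusted p = 0.139). *Myoz2*, whose product calsarcin-1 ties calcineurin to the Z-disc, held 350, 325 and 446 against 279, 355 and 265. Cpt1bcKO replicate 2 again fell inside the CtrlCre range, and the difference was -0.32 (SE 0.12, limma adjusted p = 0.223), or -0.18 without CtrlCre replicate 3.

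In the opposite direction, *Flnc*, the muscle filamin that crosslinks actin, held 311, 316 and 334 in CtrlCre and 361, 400 and 351 in Cpt1bcKO. The genotypes did not overlap, and the log2 difference was 0.21 (SE 0.094, limma adjusted p = 0.343). *Synpo2l*, an actin-bundling protein of the Z-disc, held 208, 193 and 226 against 194, 276 and 306, with overlap through Cpt1bcKO replicate 1 and a difference of 0.28 (SE 0.13, limma adjusted p = 0.349). It was 0.48 without Cpt1bcKO replicate 1, with a limma adjusted p of 0.0397, and 0.15 without Cpt1bcKO replicate 3, with 0.759.

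*Ldb3* encodes Cypher, an actinin-binding Z-disc protein, and had the highest level of the Z-disc group. Its values of 749, 730 and 787 in CtrlCre and 705, 780 and 581 in Cpt1bcKO overlapped, and the log2 difference of -0.14 (SE 0.11, limma adjusted p = 0.671) did not pass the test. It was -0.24 without Cpt1bcKO replicate 2 and -0.026 without Cpt1bcKO replicate 3. The Z-disc peaks at *Palld*, *Synpo2*, *Pdlim5*, *Actn2*, *Mypn*, *Pdlim1* and *Myot* had log2 differences of -0.21 to 0.26, and none was called.

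The thin filament genes made up 11 peaks, of which 9 had a log2 difference below 0, none was called, and the median was -0.15. *Lmod2*, a leiomodin that sets thin filament length, had the highest level, with 831, 716 and 1012 in CtrlCre and 770, 956 and 683 in Cpt1bcKO. The libraries of both genotypes were interleaved and the log2 difference was -0.087 (SE 0.13, limma adjusted p = 0.862). It changed sign without CtrlCre replicate 3, to 0.044, and without Cpt1bcKO replicate 3, to 0.023, and was -0.21 without CtrlCre replicate 2 and -0.22 without Cpt1bcKO replicate 2.

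The only thin filament peak with an unadjusted p under 0.05 was the small one upstream of *Tnnt2*, cardiac troponin T. It spanned chr1:135830505-135831739, with its far end 5849 bases before the nearest *Tnnt2* start, and overlapped *Lad1*, so its assignment is uncertain. It held 40, 51 and 18 in CtrlCre and 15, 16 and 9 in Cpt1bcKO. CtrlCre replicate 3 lay close to the Cpt1bcKO libraries, and the log2 difference was -1.30 (SE 0.39, limma adjusted p = 0.0784). The limma adjusted p was 0.0162 without CtrlCre replicate 3 and 0.119 to 0.320 without any other single library. The promoter peak of *Tnnt2* and the peaks of the other troponin and tropomyosin genes of the list, *Tnni3*, *Tnnc1*, *Tpm1*, *Tpm2* and *Tpm4*, were not called.

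The thick filament group split evenly. *Mybpc3* encodes cardiac myosin-binding protein C and had the highest level of this group, in a peak of 11751 bases at chr2:91115247-91126998 that also overlaps *Spi1*. Its values were 661, 760 and 690 in CtrlCre and 791, 966 and 777 in Cpt1bcKO, higher in each Cpt1bcKO library. The log2 difference of 0.26 (SE 0.11) had a limma adjusted p of 0.299, which became 0.0374 with quantile normalization. Without single libraries the limma adjusted p was 0.216 to 0.621, and the difference was 0.16 without Cpt1bcKO replicate 2.

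*Myom2*, the M-protein of the M-band, held 284, 286 and 322 against 223, 286 and 213. Cpt1bcKO replicate 2 equalled CtrlCre replicate 2, and the log2 difference was -0.31 (SE 0.11, limma adjusted p = 0.164). Its limma adjusted p was 0.0350 without Cpt1bcKO replicate 2 and 0.152 to 0.500 without any other single library. *Myom1*, myomesin, and *Unc45b*, the myosin chaperone, had differences of 0.20 and -0.018 with limma adjusted p-values of 0.532 and 0.974.

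Among the genes of protein quality control and turnover, 4 of 5 peaks had a difference below 0. *Trim55*, a muscle RING-finger ubiquitin ligase at the sarcomere, held 306, 314 and 309 in CtrlCre and 239, 277 and 239 in Cpt1bcKO. The CtrlCre libraries were tightly grouped above all Cpt1bcKO libraries, with a log2 difference of -0.30 (SE 0.096, limma adjusted p = 0.110). Its relative *Trim54* held 231, 272 and 308 against 332, 385 and 265, with a difference of 0.27 (SE 0.12, limma adjusted p = 0.356) and overlap through Cpt1bcKO replicate 3. Without that library it was 0.41, and it was 0.16 without CtrlCre replicate 1 and 0.14 without Cpt1bcKO replicate 2.

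*Bag3*, the co-chaperone of selective autophagy in muscle, had the highest level of this group. It held 491, 535 and 586 against 519, 569 and 437, which overlapped, and the log2 difference was -0.085 (SE 0.11, limma adjusted p = 0.830). Leaving out single libraries gave values from -0.17 (without Cpt1bcKO replicate 2) to 0.020 (without Cpt1bcKO replicate 3). The other ubiquitin ligases of muscle atrophy, *Trim63* (MuRF1) and *Fbxo32* (atrogin-1), had differences of -0.034 and -0.071 with 95% intervals of -0.23 to 0.16 and -0.27 to 0.13.

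At the intercalated disc and assembly scaffolds no peak was called. *Xirp1*, an actin-binding repeat protein of the intercalated disc, held 459, 437 and 461 in CtrlCre and 432, 430 and 366 in Cpt1bcKO. The values did not overlap, yet the log2 difference was small at -0.15 (SE 0.097, limma adjusted p = 0.584), or -0.069 without Cpt1bcKO replicate 3. *Ankrd1*, the stress-induced ankyrin repeat protein grouped with *Fhl2*, ranged from 239 to 355 in CtrlCre and from 165 to 390 in Cpt1bcKO and was not called (limma adjusted p = 0.787).

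The Popeye-domain proteins bind cyclic AMP at the CM membrane. *Popdc2* had the highest level of all 43 peaks, with 1022, 865 and 941 in CtrlCre and 1028, 1067 and 867 in Cpt1bcKO, which overlapped. Its log2 difference was 0.064 (SE 0.11, limma adjusted p = 0.889), and 0.0040 to 0.16 when single libraries were left out. *Bves* held 161, 153 and 145 against 133, 138 and 129, lower in each Cpt1bcKO library, with a difference of -0.20 (SE 0.11, limma adjusted p = 0.487).

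The 24 peaks of the list not described in full had log2 differences from -0.44 to 0.26, 15 of them below 0, and the smallest limma adjusted p among them was 0.528. Precision varied with level. The median SE was 0.11 over the 43 peaks and 0.15 over all tested peaks, while the upstream peak of *Xirp1*, at a mean of 10.2, had an SE of 0.53 and could not have shown a moderate difference. Across the 43 peaks, which share libraries and depth, the log2 difference was weakly related to width (Spearman's rho = 0.31) and to level (rho = 0.19), given as a description.

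Listed genes without a peak of their own name were looked up by position. *Cryab*, the small heat shock protein that protects desmin and titin, shares a divergent promoter with *Hspb2*, and the peak named *Hspb2* at chr9:50750735-50756381 covered the *Cryab* starts. It held 495, 542 and 517 in CtrlCre and 432, 504 and 415 in Cpt1bcKO, overlapping through Cpt1bcKO replicate 2, with a log2 difference of -0.21 (SE 0.10, limma adjusted p = 0.392). An unassigned peak at chr6:71258837-71262795 covered 3 starts of *Smyd1*, the muscle methyltransferase that assists myosin folding. It held 296, 232 and 289 against 280, 324 and 271, with a difference of 0.10 (SE 0.11, limma adjusted p = 0.780). No peak lay over *Myoz1* or *Capn3*, both used mainly in skeletal muscle.

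Inner peaks were also present in listed genes with a promoter peak. In *Nebl*, the nebulette gene, an unassigned peak at an inner transcript start had a higher level than the peak carrying the gene's name, which ranged from 32 to 63. It held 287, 288 and 294 in CtrlCre and 230, 301 and 224 in Cpt1bcKO. Cpt1bcKO replicate 2 lay above all CtrlCre libraries and the other two below them, and the log2 difference was -0.22 (SE 0.11, limma adjusted p = 0.419). Of the other unassigned or differently named peaks over listed genes that were tested, in *Myom1*, *Xirp2*, *Pdlim5*, *Smyd1* and *Palld*, none was called, with the smallest limma adjusted p of 0.320 at a peak covering *Palld* starts. Those in *Fhl2* are given above. A peak near the 3′ part of *Tnnt2* was below the level for testing, with 9, 7 and 19 against 1, 3 and 4.

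Other sarcomere genes outside the list moved in both directions. Of a second list of 50 symbols, 36 had a tested peak, 40 peaks in all. In Cpt1bcKO 5 were called lower and 3 higher at an adjusted p under 0.05, where 1.82% and 1.11% of all tested peaks were. This list was chosen with earlier results of these data known. The study had already reported lower H3K4me3 at *Mylk3* and higher *Acta1* RNA, so the shares carry no test of the list. The median log2 difference of the 40 was -0.024. Without adjustment 9 were lower and 7 higher at a p under 0.05 (6.98% and 5.84% of all tested peaks). The 5 lower peaks lay at *Mylk3* (2 peaks), the cardiac myosin light chain kinase, at -2.73 and -1.25, *Actc1*, cardiac actin, at -0.89, *Klhl41*, a Kelch protein that stabilises thin filaments, at -0.52 and *Tmod4*, a tropomodulin, at -1.07. The higher ones lay at *Acta1*, skeletal actin, at 1.88, *Ankrd23*, a titin-binding ankyrin repeat protein, at 0.64 and *Popdc3* at 0.42. *Ankrd23* held 173, 202 and 171 in CtrlCre and 288, 311 and 254 in Cpt1bcKO, above the CtrlCre range in each library (SE 0.11, limma adjusted p = 0.000794). *Klhl41* held 321, 330 and 390 against 249, 286 and 194, below it in each (SE 0.12, limma adjusted p = 0.0150).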

How the data were processed

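H3K4me3 ChIP–seq was performed on sorted adult CM nuclei, with 3 libraries per genotype, using a Diagenode antibody, and input libraries were not analysed here. The authors trimmed reads with Trimmomatic 0.39, aligned them to mm10 with STAR 2.6.1d keeping unique unspliced alignments, removed duplicates with Picard 2.21.7, called peaks with MUSIC against input at a false discovery rate of 0.2 and merged them into 15848 union peaks. Peak width is therefore that of the union over libraries, and 1 value is given per peak, which hides changes in shape. The authors obtained counts per union peak with bigWigAverageOverBed and normalized them with DESeq2 1.26.0. Per library, the authors deposited the result as a whole number, which was treated as a score. The deposited table also holds the authors' mean signal per genotype, the fraction of the peak over the gene body and the distance to the start, and the log2 fold changes and p-values of the authors, which were not used. A peak took the name of the gene whose promoter lay nearest within 5000 bases in GENCODE vM15.

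The counts behind the deposited values were recovered from the rounded values and the authors' unrounded mean signal and served for depth and 2 alternatives. They totalled 2115652, 763133 and 1900785 in CtrlCre replicates 1 to 3 and 1581708, 2766416 and 2457309 in Cpt1bcKO replicates 1 to 3. Counting error at the median peak, taking each recovered count as a read, was 8.06% to 15.2%, and 3 counts correspond to 1.95 to 6.97 normalized counts. These cover counting error only.

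All 15039 peaks with a mean of at least 10 were tested with limma 3.58.1 (R 4.3.3) on log2(value + 1), with genotype alone, an intensity trend, two-sided tests and Benjamini–Hochberg adjustment over all tested peaks. The scale understates differences of low peaks. SEs and 95% intervals use limma's moderated variance. All 43 peaks of the list passed the filter. The fit was run on simulated negative binomial counts with 200 changed peaks, and the outcome is not given here. The simulation used a single dispersion and no shifts of single libraries, so it cannot speak to such shifts. Genotype and replicate number were read from the sample titles. Gene IDs were matched to GENCODE vM21 on GRCm38 (99.858% found), and promoters came from RefSeq on GRCm38.p6, with *Myot* promoter sequence left out. The list, the second sarcomere list, the markers and the motifs were chosen with earlier results of these data known. A peak was described in full where it had an unadjusted p under 0.05, did not overlap between genotypes or had the highest mean of its role. Alternatives were other pseudocounts, filters and scalings, a replicate block, voom and thinning on recovered counts, the highest peak per gene, another width limit and leaving out each library.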

Additional observations from a re-analysis of the deposited data

How the results depend on the processing

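The falls at *Fhl2* and *Pdlim3* held their direction and stayed under an adjusted p of 0.05 in all 15 alternatives, with log2 differences of -0.74 to -0.53 and -1.25 to -0.89. So did the inner *Fhl2* peak, at -1.64 to -1.31, an alternative set added after its values were seen. *Csrp3* did not stay under it in 6 of 15, with an adjusted p of 0.0627 with a replicate block, 0.0585 after thinning to the shallowest library and 0.124 to 0.237 without 4 single libraries, and a log2 difference of -0.65 to -0.34 when a library was left out. *Myom2* passed after thinning (adjusted p = 0.0400) and without Cpt1bcKO replicate 2 (0.0350), and *Synpo2l* without Cpt1bcKO replicate 1 (0.0397). Without other single libraries their adjusted p-values reached 0.500 and 0.759. The cause of these shifts was not tested. Same-numbered libraries did not deviate together (correlations 0.076, -0.081 and 0.11), so replicate numbers were not taken as pairs. With the replicate block 2 listed peaks were called lower at an adjusted p under 0.05. At an unadjusted p under 0.05 the block gave 9 lower and 2 higher. The count of higher peaks was 1 with median centring, 2 after thinning and 0 to 5 without single libraries. Called higher at an adjusted p under 0.05 were 1 peak with quantile normalization and 0 to 1 without single libraries. Peaks with no overlap numbered 1 higher with median centring, and 2 to 5 higher and 8 to 16 lower without single libraries. Over all tested peaks, 441 were called at an adjusted p under 0.05 in the main fit. The number was 370 with the block, 417 with quantile normalization, 457 with median centring and 247 after thinning. Without single libraries it was 229 (without CtrlCre replicate 1) to 431 (without CtrlCre replicate 2). For the unadjusted and no-overlap counts the share over all tested peaks is not given under these alternatives. Leaving out single libraries gave *Bag3* -0.17 to 0.020 (above 0 without Cpt1bcKO replicate 3) and *Lmod2* -0.22 to 0.044 (above 0 without CtrlCre replicate 3, or Cpt1bcKO replicate 3 at 0.023). With the widest 10% of peaks as the limit, 69.8% of listed peaks were broad. The median difference of all tested peaks was -0.0036 with median centring and 0.0082 with quantile normalization. CtrlCre replicate 2, the shallowest library, limits the low peaks.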
